A study of Mus musculus with 2 samples.

Results

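The genes described here are 8 transcription factors of the endoderm and heart lineages, namely Gata3, Gata4, Gata5, Gata6, Cdx1, Cdx2, Pdx1 and Hnf4a. They were chosen by name and all 8 were found among the 43437 genes of the deposited table, with 22 of its 103615 isoforms. Untreated wild-type mouse fetuses of the ICR strain at E12.5 gave RNA of the whole body for 1 library and of the telencephalon, the front part of the embryonic brain, for the other, and both were sequenced. The labels give neither the number nor the sex of the fetuses, nor whether the head was part of the whole body. With 1 library per group no difference has a replicate check, no test was made, and each value describes these 2 libraries.

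GATA proteins are zinc finger factors that bind the DNA letters they are named after. Gata4, Gata5 and Gata6 act in the heart and in the endoderm, the germ layer of gut, liver, pancreas and lung, while Gata3 acts in T cells, sympathetic neurons, inner ear, kidney duct and skin. Cdx1 and Cdx2 are caudal-type homeobox factors of the intestine and the tail end of the body axis, Pdx1 is the homeobox factor that pancreas formation requires, and Hnf4a is a nuclear receptor of hepatocytes and gut epithelium. None of the 8 is a defining factor of the telencephalon.

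Levels are FPKM, fragment numbers divided by transcript length and by the library's mapped total, so they can be compared between genes. The whole-body library held about 29340000 fragments and the telencephalon library about 22740000, estimated from the smallest steps of the FPKM values. For a 2000-base transcript 1 fragment equals 0.0203 FPKM in the former and 0.0264 in the latter. Fragment numbers below are estimates on this basis, and their 95% exact intervals cover counting error only, not differences between fetuses or libraries. The log2 ratio divides FPKM + 1 in telencephalon by FPKM + 1 in whole body and so understates differences of weak genes, whereas a fold given for a gene divides the FPKM themselves. Counts of genes at least 2-fold higher, at least 2-fold lower or within 2-fold are all made on the log2 ratio with 1 FPKM added, so a weak gene within 2-fold by this count can differ by more in FPKM. A gene counted as measured if at least 1 of the libraries had 1 FPKM or more. Markers fitted the labelled tissue: 7 of 8 telencephalon markers were at least 2-fold higher in the telencephalon library, with the largest log2 ratio for Dlx2, and Emx2, at 4.75 against 1.93 FPKM, had a log2 ratio of 0.97, just inside 2-fold on that scale.

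The promoter sequences shown here belong to genes whose isoforms or levels are described below. RefSeq start-site windows on GRCm38.p6 matched 5 of the 8 genes (Gata3, Gata5, Hnf4a, Pdx1 and Cdx2), with 2 windows for Hnf4a, and the 250 bases before the start are given for 3 genes. The Hnf4a windows, 40298 bases apart, precede the starts known as P2 (upstream) and P1 (downstream), and Gata3 and Gata5 are shown because, of the 5 genes of 1 FPKM or more, Gata3 kept the most and Gata5 the least of its whole-body level. Capitals mark the motif bound by GATA factors, spelled AGATAA and searched on both strands.
Hnf4a P2, chr2:163506607-163506856, plus strand: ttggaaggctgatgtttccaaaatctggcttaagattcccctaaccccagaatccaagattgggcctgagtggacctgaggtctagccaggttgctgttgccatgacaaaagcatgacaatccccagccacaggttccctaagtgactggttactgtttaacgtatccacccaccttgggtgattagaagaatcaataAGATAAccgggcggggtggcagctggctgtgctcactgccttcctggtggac
Hnf4a P1, chr2:163546905-163547154, plus strand: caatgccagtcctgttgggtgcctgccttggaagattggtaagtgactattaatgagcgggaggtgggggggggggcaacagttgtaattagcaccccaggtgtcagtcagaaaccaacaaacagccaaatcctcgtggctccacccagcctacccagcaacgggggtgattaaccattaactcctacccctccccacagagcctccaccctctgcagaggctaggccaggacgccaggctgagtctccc
Gata3, chr2:9878601-9878850, minus strand: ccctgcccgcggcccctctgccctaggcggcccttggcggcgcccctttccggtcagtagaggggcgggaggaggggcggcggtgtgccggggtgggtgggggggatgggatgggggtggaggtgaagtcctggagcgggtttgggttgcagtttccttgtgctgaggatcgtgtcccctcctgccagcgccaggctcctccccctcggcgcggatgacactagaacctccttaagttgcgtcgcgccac
Gata5, chr2:180334680-180334929, minus strand: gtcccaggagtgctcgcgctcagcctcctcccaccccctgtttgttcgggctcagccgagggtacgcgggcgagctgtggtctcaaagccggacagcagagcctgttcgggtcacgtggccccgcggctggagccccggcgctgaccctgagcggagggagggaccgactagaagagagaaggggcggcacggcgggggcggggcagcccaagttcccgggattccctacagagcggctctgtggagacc
The P2 window held 1 GATA motif and the P1 window held none. The windows follow RefSeq starts. The P2 and Gata5 windows reach past the starts of the isoforms described below, at 163506808 and 180334699, and so include some exon bases. The P2 motif begins at -52 from the RefSeq start and spans the annotated isoform start. Of 32851 windows of this length in the table, 9.99% held the motif. It was not found in the Gata3, Gata5, Pdx1 and Cdx2 windows. The Gata3 and Gata5 windows were each 70.0% G and C with 19 and 22 CG pairs, against a median of 52.4% and 6 over all windows. The Hnf4a windows held 51.2% and 57.6% with 3 and 4 CG pairs. A match of letters is a description and not evidence of binding.

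In whole body, Gata6, Hnf4a and Gata4 were the most abundant of the 8, and the homeobox genes were barely detected. Gata6 stood at 10.1 FPKM (95% counting interval 9.43 to 10.8), Hnf4a at 8.48 (7.95 to 9.03) and Gata4 at 7.25 (6.69 to 7.83). Gata3 followed at 3.93 (3.52 to 4.38) and Gata5 at 2.27 (1.97 to 2.61). These 5 intervals did not overlap one another. Pdx1 at 0.273 FPKM, Cdx1 at 0.215 and Cdx2 at 0.0878 formed the low end, and the intervals of neighbours in this order overlapped. Gata5, the lowest of the first 5, was 8.33-fold above Pdx1.

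In telencephalon none of the 8 reached 1 FPKM, and the order was different. Gata3 was highest at 0.580 FPKM (0.411 to 0.797) and Pdx1 came next at 0.430 (0.257 to 0.687), with overlapping intervals. Gata4 at 0.266, Hnf4a at 0.262 and Gata6 at 0.108 followed, each with an interval that overlapped that of its neighbour, and Cdx2 was at 0.0228. Gata5 and Cdx1 were listed at 0. A count of 0 allows up to 3 fragments, worth 0.0449 FPKM for Gata5 and 0.0933 for Cdx1, or 0.0552 and 0.115 FPKM by the upper end of the 95% exact interval used for the other values. In bulk RNA, fewer cells expressing a gene and less of its RNA per cell cannot be told apart.

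**Figure D1:**
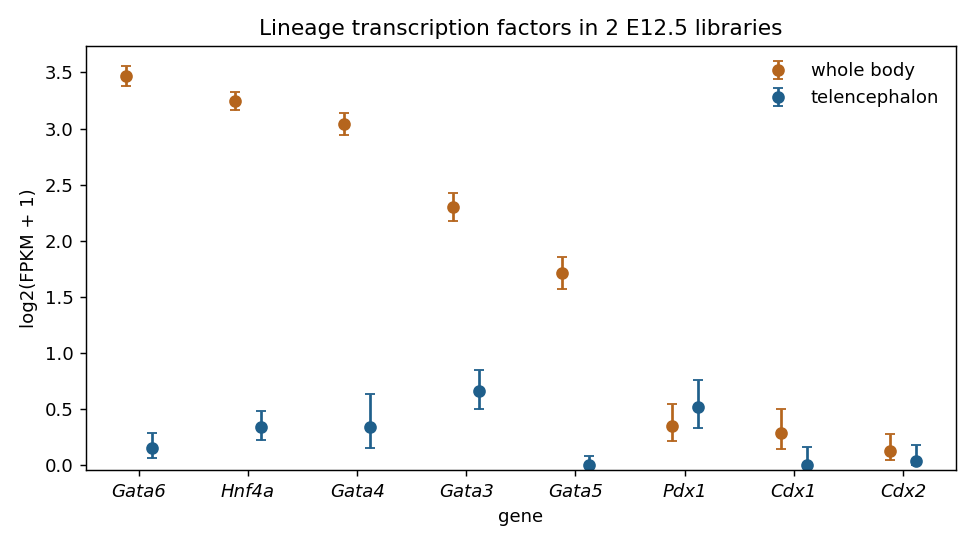
Level of each gene as log2(FPKM + 1) in whole body (brown) and telencephalon (blue), 1 library each, with 95% exact Poisson counting intervals of the estimated fragments as bars. The 5 genes at the left stood between 2.27 and 10.1 FPKM in whole body and at most 0.580 in telencephalon. The bars of the 2 libraries overlapped for Pdx1, Cdx1 and Cdx2.

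Of the 8 genes, 5 were measured, all 5 through the whole-body library, and all 5 were at least 2-fold lower in telencephalon. Over all 14987 measured genes 21.2% were at least 2-fold lower and 9.39% at least 2-fold higher, and of 14343 genes of 1 FPKM or more in whole body 22.1% were lower. Because every one of the 5 passed the floor only where it was high, the count is a description and supports nothing about the group. The log2 ratios ran from -3.32 for Gata6 to -1.64 for Gata3, beside a median of -0.16 over all measured genes. Lower ratios than that of Gata6 were found in 2.59% of measured genes, lower than Hnf4a in 3.68%, Gata4 in 4.57%, Gata5 in 10.6% and Gata3 in 11.3%. The place of Gata5, at 0 in telencephalon, is set by the pseudocount: its log2 ratio was -1.71 with 1 FPKM and -4.57 with 0.1 FPKM. The ratios of Gata6, Hnf4a, Gata4 and Gata3 depend on the pseudocount too. With 0.1 FPKM they were -5.62, -4.57, -4.33 and -2.57, so the places given above hold for 1 FPKM only. The other 3 genes, Cdx1, Cdx2 and Pdx1, lay below the floor in both libraries.

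**Figure D2:**
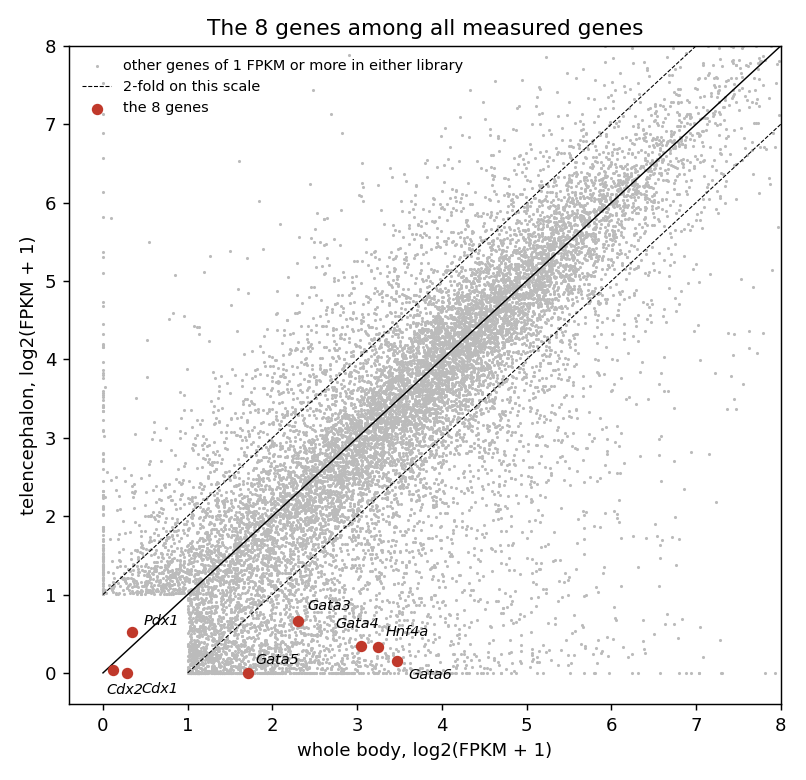
Telencephalon against whole body, each as log2(FPKM + 1), for the 14987 measured genes (grey) and the 8 genes (red). Both axes end at 8, so genes above that are not drawn; solid and dashed lines mark equality and 2-fold. Gata3, Gata4, Gata5, Gata6 and Hnf4a lie below the lower dashed line, and Pdx1, Cdx1 and Cdx2 near the origin.

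Gata6, which is needed in early endoderm and in the outflow tract of the heart, had the lowest log2 ratio of the 8, on the scale with 1 FPKM added. It is ENSMUSG00000005836 on chromosome 18, 11052064 to 11085635, plus strand. Whole body had 10.1 FPKM and telencephalon 0.108, about 862 and 7 fragments. The level was 93.8-fold lower in telencephalon, with a counting interval of 46.1 to 238. This interval overlaps that of Gata4 by fragments (33.7 to 174) and that of Hnf4a (20.9 to 49.0). Gata5, with 0 in telencephalon, has no fold value. Its counting interval begins at 41.0-fold lower, with no upper limit, and overlaps that of Gata6. The telencephalon library held 1.07% of the whole-body level of Gata6. The deposited table has 1 isoform of Gata6, with 7 exons and 3234 bases, so no division among isoforms enters this value.

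Gata4, a factor of heart muscle and of the liver bud, had 7.25 FPKM in whole body against 0.266 in telencephalon. It is ENSMUSG00000021944 on chromosome 14, 63198922 to 63271692, minus strand. The ratio of FPKM was 27.3-fold, while the estimated fragments, about 630 and 7, gave 69.8-fold after scaling by depth, with an interval of 33.7 to 174 that does not hold the ratio of FPKM. The listed division among isoforms differed between the libraries, but in telencephalon it divides only about 7 fragments. Apart from its first exon, the 6-exon isoform named below lies within exons of the 7-exon isoforms. Reads there were assigned by estimation, so a different use of isoforms was not shown. In whole body 96.6% of the FPKM lay in the 2 isoforms with 7 exons (5.11 and 1.89 FPKM), which start within the same stretch. In telencephalon those 2 were near 0, and the signal lay in a 6-exon isoform of 2407 bases that starts 31.7 kb further downstream (0.127 FPKM, about 6 fragments) and a 2-exon isoform of 653 bases (0.139 FPKM, about 1 fragment). Thus 52.1% of the telencephalon FPKM of Gata4 came from about 1 fragment on a short transcript.

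Gata5, which acts in the endocardium and the heart valves, stood at 2.27 FPKM in whole body, from about 197 fragments, and had no fragment in telencephalon. It is ENSMUSG00000015627 on chromosome 2, 180325133 to 180334699, minus strand, with 1 isoform of 6 exons and 3277 bases. Its antisense gene Gata5os shares 258 exon bases with it and was listed at 0 in both libraries. Summed over Gata4, Gata5 and Gata6, the 3 cardiac and endodermal GATA genes, telencephalon held 0.373 FPKM against 19.6 in whole body, or 1.90%. Of the 0.373 FPKM, 0.139 came from about 1 fragment on a short Gata4 isoform.

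Gata3 kept the most of its whole-body level among the 5 measured genes. It is ENSMUSG00000015619 on chromosome 2, 9857078 to 9890034, minus strand. Whole body had 3.93 FPKM and telencephalon 0.580, about 334 and 38 fragments, and was 6.78-fold lower with a counting interval of 4.86 to 9.80. This interval lies below those of Gata4, Gata6 and Hnf4a. Nearly all of it in both libraries came from the 6-exon isoform of 3215 bases that starts beside the promoter window printed above. Gata3 made up 16.7% of the summed FPKM of the 4 GATA genes in whole body and 60.8% in telencephalon. The telencephalon sum includes 0.139 FPKM of Gata4 from about 1 fragment.

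Hnf4a had 8.48 FPKM in whole body against 0.262 in telencephalon, about 967 and 24 fragments. It is ENSMUSG00000017950 on chromosome 2, 163506808 to 163572910, plus strand. It was 32.4-fold lower in telencephalon, with a counting interval of 20.9 to 49.0. The 2 isoforms with 10 exons, whose starts differ by 1 base and follow the P1 window, carried 96.3% of the whole-body FPKM and 100% of the telencephalon FPKM. The isoform that starts within the P2 window, annotated as a fragment of 3 exons and 431 bases, had 0.317 FPKM in whole body. This was worth about 1 fragment, and the isoform was listed at 0 in telencephalon. That annotated P2 transcript is short and ends within the gene, so reads from exons further along could not have been assigned to it.

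**Figure D3:**
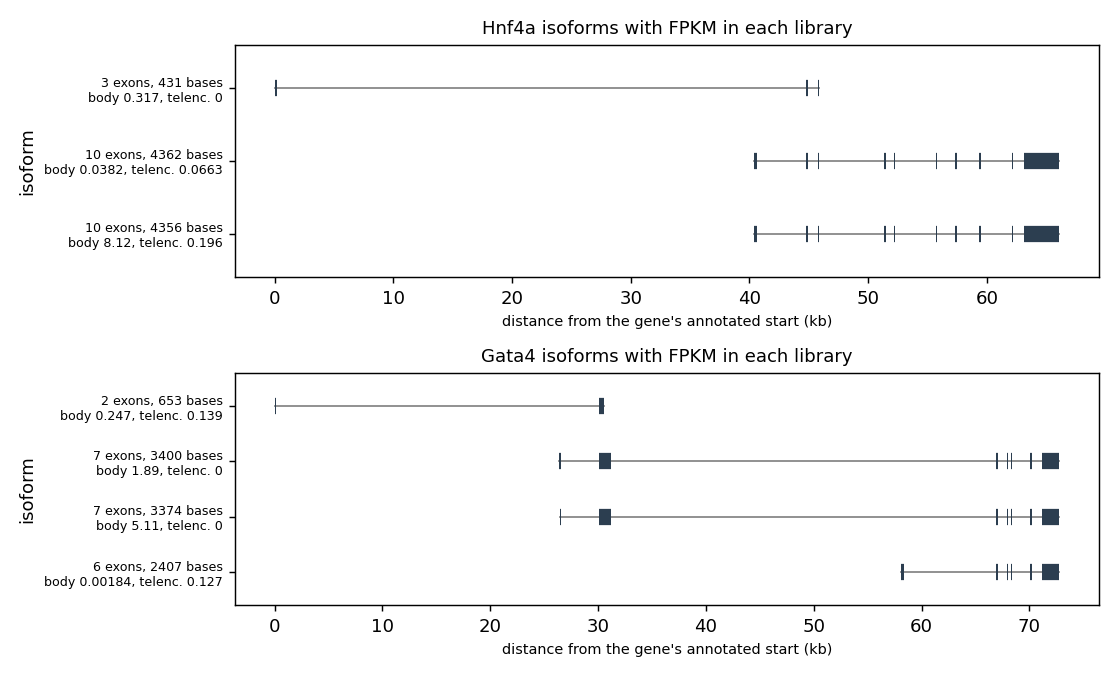
Annotated exons (dark boxes) of the Hnf4a and Gata4 isoforms above 0.001 FPKM in either library, drawn by distance in kb from the gene's annotated start, with the FPKM of each isoform in whole body and telencephalon at the left. The 10-exon Hnf4a isoforms held nearly all of that gene's signal in both libraries. For Gata4 the 7-exon isoforms held 96.6% in whole body. The other 2 held the listed signal in telencephalon, which was about 7 fragments in all.

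Pdx1 was the only one of the 8 with a higher value in telencephalon, and the difference was within counting error. It is ENSMUSG00000029644 on chromosome 5, 147269959 to 147275848, plus strand. Whole body had 0.273 FPKM and telencephalon 0.430, about 15 and 18 fragments, a 1.58-fold higher value with an interval of 0.737 to 3.30. A long non-coding RNA gene on the opposite strand, Plut, overlaps the Pdx1 locus without sharing exon bases, and had 0.373 FPKM in telencephalon, about 6 fragments, and 0 in whole body. The kit used marks no strand, so unspliced reads of this overlap cannot be assigned to a strand.

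Cdx1 and Cdx2 rested on few fragments in both libraries. Cdx1 (ENSMUSG00000024619, chromosome 18, 61018862 to 61036199, minus strand) had about 9 fragments in whole body (4.12 to 17.1) and none in telencephalon, and the counting interval of its fold begins at 1.53-fold lower, with no upper limit. Cdx2 (ENSMUSG00000029646, chromosome 5, 147300805 to 147307270, minus strand) had about 5 and 1, a 3.85-fold lower value with an interval of 0.434 to 183. For Cdx2 no difference was detectable at this depth.

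Pdx1 and Cdx2 lie with Gsx1 in the ParaHox cluster, a sister of the Hox clusters, within 118.6 kb of chromosome 5. Gsx1, a homeobox gene of the ventral forebrain, ends 79.0 kb before Pdx1, and Cdx2 lies 25.0 kb after it. Gsx1 had 4.31 FPKM in telencephalon against 0.892 in whole body, 4.83-fold higher. The 3 neighbours thus ran from 4.31 through 0.430 to 0.0228 FPKM in telencephalon along the cluster, the last from about 1 fragment. In whole body the listed order was the same, from 0.892 through 0.273 to 0.0878 FPKM, but the counting intervals of Pdx1 and Cdx2 overlapped. Gsx2, a ventral forebrain gene related to Gsx1, was 41.7-fold higher in telencephalon at 18.0 against 0.431 FPKM. Cdx4, the third caudal-type gene, had about 15 fragments in telencephalon and 3 in whole body, 0.405 against 0.0623 FPKM, a ratio of 6.50 with a counting interval of 1.82 to 34.8.

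Related GATA genes were lower in telencephalon as well. Gata1, the erythroid member, stood at 0.337 against 26.9 FPKM, 79.9-fold lower. Gata2, which acts in blood progenitors, endothelium and midbrain neurons, stood at 0.666 against 7.17 FPKM, 10.8-fold lower. Trps1, an atypical GATA factor of cartilage and hair follicle, was 3.36-fold lower at 3.56 against 11.9 FPKM. Gata2, like Gata3, kept more of its whole-body level than Gata4 and Gata6 did. Hnf4g, the closest relative of Hnf4a, had about 2 fragments in whole body and none in telencephalon.

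Heart genes were mostly lower in telencephalon, and the higher ones were Isl1 and Hand1. Of 13 measured cardiac transcription factors and cofactors 9 were at least 2-fold lower, 2 higher and 2 within 2-fold (median log2 ratio -1.39). Beside this and each list below, 21.2% of all measured genes were at least 2-fold lower and 9.39% at least 2-fold higher. Tbx5, a factor of the forming atria and left ventricle and of the forelimb, stood at 0.171 against 6.37 FPKM, and Tbx18, a factor of the sinus horn and epicardium, at 0.172 against 5.14. Isl1, a factor of the second heart field and also of striatal neurons, was at 47.5 against 11.6 FPKM. Hand1, a factor of the left ventricle and extraembryonic tissue, was at 9.58 against 1.49 FPKM, but 99.6% of the telencephalon value lay in an isoform of 354 bases and rested on about 5 fragments, against about 69 in whole body. Its log2 ratio was 2.09, and -1.26 when isoforms shorter than 400 bases were left out. All 9 measured heart muscle genes were lower (median -4.12), with the cardiac actin gene Actc1 at 0.734 against 423 FPKM and the atrial light chain gene Myl4 at 1.15 against 68.2.

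Among endoderm factors Sox2 and Eomes were higher in telencephalon and none of the other 10 was at least 2-fold higher. Of 12 measured factors 6 were at least 2-fold lower, 2 higher and 4 within 2-fold (median -1.03). Foxa2, a forkhead factor of endoderm and floor plate, was listed at 0 in telencephalon and stood at 3.33 FPKM in whole body. Hhex, a factor of the liver and thyroid buds, stood at 0.240 against 3.45 FPKM. Eomes, which acts in early endoderm and in intermediate progenitors of the cortex, stood at 24.8 against 1.86 FPKM, and Sox2, a factor of foregut and of neural progenitors, at 72.3 against 7.37.

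Genes that Hnf4a, the Cdx factors and Pdx1 are known to act with were low in telencephalon, with exceptions among the pancreas genes. Of 11 measured liver targets of Hnf4a 10 were lower by 2-fold or more, with a median of -3.89 and no gene higher, led by the serum protein genes Afp (1.03 against 843 FPKM) and Alb (1.21 against 833). Of 10 gut epithelium genes only 4 were measured, of which 3 were lower, and the fatty acid binding protein gene Fabp1 and the keratin gene Krt20 had 13.9 and 1.85 FPKM in whole body but 0 in telencephalon. Fabp1 is also a liver gene. Of 14 pancreas genes 7 were measured, with 4 lower, 2 higher and 1 within 2-fold (median -1.13). The latter was Neurog3, the factor of endocrine progenitors, at 0.292 against 1.12 FPKM, 3.83-fold lower in FPKM, and it was named after its values were seen. Cpa1, a digestive enzyme, stood at 0.176 against 4.27 FPKM and Slc2a2, a glucose transporter of beta cells and liver, at 0 against 2.85.

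Genes of the territories where Gata3 acts were lower in telencephalon, without one that was higher. Of 11 measured genes 10 were at least 2-fold lower and 1 was within 2-fold (median -2.15). Tal1, a blood factor that also acts with Gata2 and Gata3 in brainstem and spinal cord neurons, stood at 1.70 against 41.2 FPKM. Dbh, the enzyme that makes noradrenaline in sympathetic neurons, was listed at 0 against 6.69 FPKM. Over the 8 related lists together, 71 of 90 distinct genes were measured, of which 54 were lower and 8 higher. Over all measured genes 21.2% were lower and 9.39% higher. Genes such as Dbh passed the floor only in whole body, where they were high, so these counts are a description. Hand1 is among the 8 higher genes, and without isoforms under 400 bases the counts were 55 and 7.

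**Figure D4:**
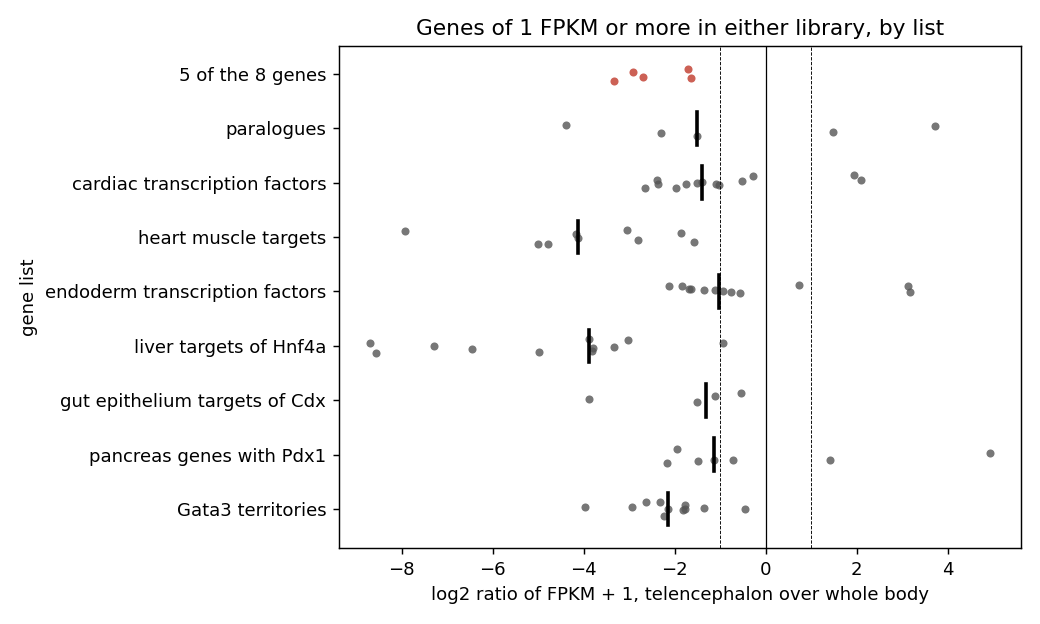
Log2 ratio of FPKM + 1, telencephalon over whole body, of each measured gene (points) in the 8 related lists and of the 5 measured genes among the 8 (red), with the median of each list as a bar and 2-fold as dashed lines. The heart muscle and liver lists reach furthest to the left, to -7.93 and -8.70, while points right of the 2-fold line include Gsx2 and Eomes.

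Markers of other tissues moved in the same direction and are given here beside the 8 genes. The summed FPKM of 8 hepatoblast markers was 137 in telencephalon against 3062 in whole body (8 of 8 lower, 4.49% of whole body, Apoa2 and Serpina1a at 0), that of 6 heart muscle markers 1.25 against 501 (6 of 6 lower, 0.249%, Myl7 at 0), and that of 6 skin epithelium markers 0.709 against 91.6 (6 of 6 lower, 0.774%, Krt14 and Krt18 at 0). The 8 midbrain and hindbrain markers, which include Gata2 and Tal1, summed to 3.54 against 71.8 (7 of 8 lower, 4.93%, Hoxa2 at 0). Tal1, also a blood factor, gave 41.2 of the 71.8 FPKM in whole body and 1.70 of the 3.54 in telencephalon. Gata2, also of blood progenitors and endothelium, gave 7.17 and 0.666 FPKM. The 6 fibroblast and meninges markers summed to 14.2 against 1559 (6 of 6 lower, 0.909%, none at 0), the 7 red cell markers to 2626 against 4632 (4 of 7 lower, 56.7%, none at 0) and the 6 endothelial markers to 45.7 against 112 (5 of 6 lower, 40.9%, none at 0). Single genes carried some of these sums. Actc1 gave 423 of the 501 FPKM of the heart muscle markers in whole body and 0.734 of the 1.25 in telencephalon. Dlk1 gave 132 of the 137 FPKM of the hepatoblast markers, and the other 7 kept 0.244% of their whole-body sum. The 3 embryonic globin genes gave 2607 of the 2626 FPKM of the red cell markers, while Gata1, Klf1, Slc4a1 and Alas2 kept 0.959% to 6.34% each. By the same measure Gata6 kept 1.07%, Hnf4a 3.09%, Gata4 3.67% and Gata3 14.7% of the whole-body level. The Gata4 value includes 0.139 FPKM from about 1 fragment. By fragments scaled by depth Gata4 was 69.8-fold lower and Hnf4a 31.2-fold lower, which reverses the order of these 2. The part of these tissues in the values of the 8 genes was not tested.

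The measured gene whose pair of levels was nearest to that of each measured factor was sought among 13251 protein-coding genes, by distance in log2(FPKM + 1) over the 2 libraries. For Gata6 it was Habp2 (10.1 and 0.135 FPKM, distance 0.036), for Hnf4a Moxd1 (8.55 and 0.239), for Gata4 Prkg1 (7.19 and 0.283), for Gata3 P2ry6 (3.98 and 0.603) and for Gata5 Tm4sf4 (2.26 and 0). With 2 libraries such a match says only that the levels were alike.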

How the data were processed

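The authors deposited 2 tables, of FPKM per gene and FPKM per isoform, in which each library is a column. Libraries were made from total RNA with a TruSeq RNA v2 kit and sequenced on a HiSeq 2000, per the labels' protocols. TopHat, Cufflinks and Cuffdiff were used with GRCm38, per the submitters' processing notes, and their versions and the annotation release are not given in the sources used here. No count model was run, since FPKM are not counts.

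Genes were matched by identifier to GENCODE M21 (GRCm38) for coordinates and transcript lengths, which 42276 of 43437 genes had. Depth was fitted so that the FPKM of single-isoform genes with transcripts of 1000 to 6000 bases and values under 0.3 FPKM fell on whole fragments. This subtracted 322 and 336 bases from each length, after which 93.3% of 2138 whole-body values and 93.1% of 2335 telencephalon values lay within 0.1 of a whole number. The fit used these same values. Log2 ratios used a pseudocount of 1 FPKM, a floor of 1 FPKM and a 2-fold threshold on that ratio. The fit and the counting were tested on simulated data. Python 3.11.15, numpy 2.4.6, pandas 2.3.3 and scipy 1.17.1 were used.

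The members and the gene lists were chosen with earlier results of these data known. All 8 members are named, with every paralogue, from each related list the 2 measured genes farthest in the direction of its median and the 1 farthest the other way, and the gene nearest in level to each measured member. Isl1, Sox2, Neurog3, Dlx2 and Emx2 were named after their values were seen. Some genes that this rule selects are not reported here. The listed genes Zfpm1 and Foxc2 are not analysed here. Alternatives were 2 other pseudocounts, 3 other scalings, 2 other floors, a 4-fold threshold and leaving out isoforms under 300 or 400 bases.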

Additional observations from a re-analysis of the deposited data

How the results depend on the processing

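The 5 measured genes among the 8 stayed at least 2-fold lower in telencephalon under all 3 scalings. They also did so under both other pseudocounts, both floors and without short isoforms, but these settings could not have changed the count. Smaller pseudocounts can only enlarge the ratio of a lower gene, and lower floors can only add genes. The 5 genes had practically no level in isoforms under 400 bases. All of these counts use the log2 ratio with the pseudocount added, on which 3 passed 4-fold, without Gata3 and Gata5. Over all measured genes 8.23% were at least 4-fold lower and 2.20% at least 4-fold higher. The share at least 2-fold lower ran from 12.8% with no floor to 25.4% with a pseudocount of 0.1 FPKM. The median log2 ratio of the 5 genes, -2.70, was -4.57 with a pseudocount of 0.1 FPKM, -3.34 with 0.5 FPKM and -3.28 in TPM. With lower floors, which add the barely detected genes, it was -2.21 over 6 genes at 0.3 FPKM and -1.68 over 8 with no floor. TPM moved the median of all measured genes from -0.16 to -0.01. In the related lists the 54 lower and 8 higher genes became 31 and 5 at 4-fold on the same scale, and 55 and 7 without isoforms under 400 bases. The shares of all measured genes at 4-fold are given above. Without those isoforms 20.7% were at least 2-fold lower and 8.67% at least 2-fold higher. Single values ranged from -2.57 to -1.62 for Gata3, -5.62 to -3.31 for Gata6, -4.57 to -1.70 for Gata5 and 0.17 to 0.51 for Pdx1. Leaving out isoforms under 400 bases, chosen after seeing the data, turned Hand1 from 2.09 to -1.26, because its telencephalon value lay in a 354-base isoform. No paired analysis was possible because each group has 1 library. For the same reason no library could be left out. Depth limits Cdx1, Cdx2 and Pdx1, which rest on at most 18 fragments, and the telencephalon values of Gata4 and Gata6, which rest on about 7.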

Other observations

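Most genes around the 8 factors were barely detected. Within 20 kb of a member, 17 other genes were annotated and listed, of which 2 reached 1 FPKM. Fdft1, the squalene synthase gene 19344 bases from Gata4, had 49.2 FPKM in telencephalon against 30.2 in whole body. Pdgfrb, the receptor gene of pericytes and mesenchyme that lies 8951 bases from Cdx1, had 4.88 and 38.0 FPKM.

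Exon bases were shared with a member by 4 of the 17 genes, none above 0.313 FPKM. The highest was 1010001N08Rik, which lies head to head with Gata6 on the opposite strand and shares 93 exon bases with it, with 0.313 FPKM in whole body against 0.0539 in telencephalon, about 9 and 2 fragments. The antisense gene Hnf4aos was listed at 0 in both libraries. Within the Gata3 locus, 4930412O13Rik had about 4 fragments in telencephalon and none in whole body, and it shares no exon bases with Gata3.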
